A study of Mus musculus with 3 samples.

Results

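Kruppel-like factors (KLFs) are transcription factors, and 10 of their genes were followed here through 3 libraries of depolarized mouse neurons. The genes were Klf2, Klf3, Klf4, Klf5, Klf6, Klf7, Klf9, Klf10, Klf12 and Klf13, taken by symbol from a table of 25562 genes. A count of 20 exonic reads or more at some time was reached by 8 of the 10, and by 10311 of all genes. Klf2 and Klf13 did not reach 20 exonic reads at any time.

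KLFs carry C-terminal zinc fingers that bind GC-rich boxes and CACCC boxes, sequences they share with the related Sp proteins. Their N-terminal parts differ: Klf3 and Klf12 recruit the corepressor CtBP, Klf9, Klf10 and Klf13 recruit the corepressor Sin3a, and Klf2, Klf4, Klf5, Klf6 and Klf7 can activate transcription. In rodent neurons Klf4 and Klf9 are known to restrain axon growth, while Klf6 and Klf7 are known to promote it.

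The cells were neurons of the medial ganglionic eminence (MGE), the embryonic source of many inhibitory interneurons. They came from C57Bl/6 mouse embryos of day 14, with no mutation or transgene named in the labels, and spent 10 days in culture. At each time the cells had first been silenced overnight, from day 9, with TTX, which blocks sodium channels, and AP-5, which blocks NMDA receptors. The libraries were made after 0 h (unstimulated), 1 h and 6 h in 55 mM KCl, 1 library a time, from total RNA depleted of ribosomal RNA and sequenced with the strand kept. The sources used here do not give the number of embryos or cultures behind a library, and no unstimulated library of 1 h or 6 h was analysed here, so time in KCl and time in culture cannot be told apart. With 1 library a time there is no replicate check, and no p-value is given.

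Uniquely mapped reads came to 8996897, 8549377 and 8579378 at 0, 1 and 6 h, of which 24.3%, 28.7% and 28.9% were sense exonic reads. Of the 12 genes listed as markers of MGE-derived interneurons, 11 were in the files and each of the 11 had at least 20 reads, while no marker of excitatory cortical neurons, out of 6, reached that count. Astrocyte and radial glia markers were also well read, 7 of 8, with summed levels of 2231, 2367 and 2503 scaled reads per 1000000 exonic reads at 0, 1 and 6 h. Of 8 oligodendrocyte lineage markers 5 reached 20 reads, with summed levels of 142, 141 and 176 in the same unit. These are bulk libraries, in which fewer cells of a type and less RNA per cell cannot be told apart.

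Levels below are sense exonic reads per 1000000 exonic reads (RPM) after TMM scaling, which sets the bulk of genes equal between libraries, and levels of different genes are set side by side only per kb of exon. A gene was counted as higher or lower at the later time when its ratio of scaled reads was at least 2 or at most 0.5, its exact 95% counting interval did not reach 1, and the larger of its 2 read counts was 20 or more. Such a gene is said to have risen or fallen. The intervals, given in brackets after each ratio, cover counting error only, and reads stood at 2.33 to 2.60 per distinct position, which the intervals do not take into account.

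At 1 h relative to 0 h, 3 of the 8 Klf genes with enough reads rose (Klf4, Klf6 and Klf10) and none fell, against 1.58% of 10093 genes that rose and 1.43% that fell. At 6 h relative to 0 h, 2 of 6 rose (Klf5 and Klf6) and none fell, against 4.92% of 10095 genes that rose and 5.42% that fell. At 6 h relative to 1 h, 1 of 8 rose (Klf5) and 2 fell (Klf4 and Klf10), against 4.17% of 10137 genes that rose and 4.63% that fell. Klf4, present at 1 h with enough reads to be compared, could not be compared between 6 h and 0 h. Klf4 and Klf10 reached 20 reads at 1 h alone, the time at which they were high, so the counts at 1 h include genes that entered through that library. Klf5 entered the comparison of 6 h with 0 h through the 6 h library alone, with 19 reads at 0 h and 46 at 6 h. The falls of Klf4 and Klf10 from 1 h to 6 h likewise entered through the 1 h library. The comparisons share libraries, so they are not independent.

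**Figure D1:**
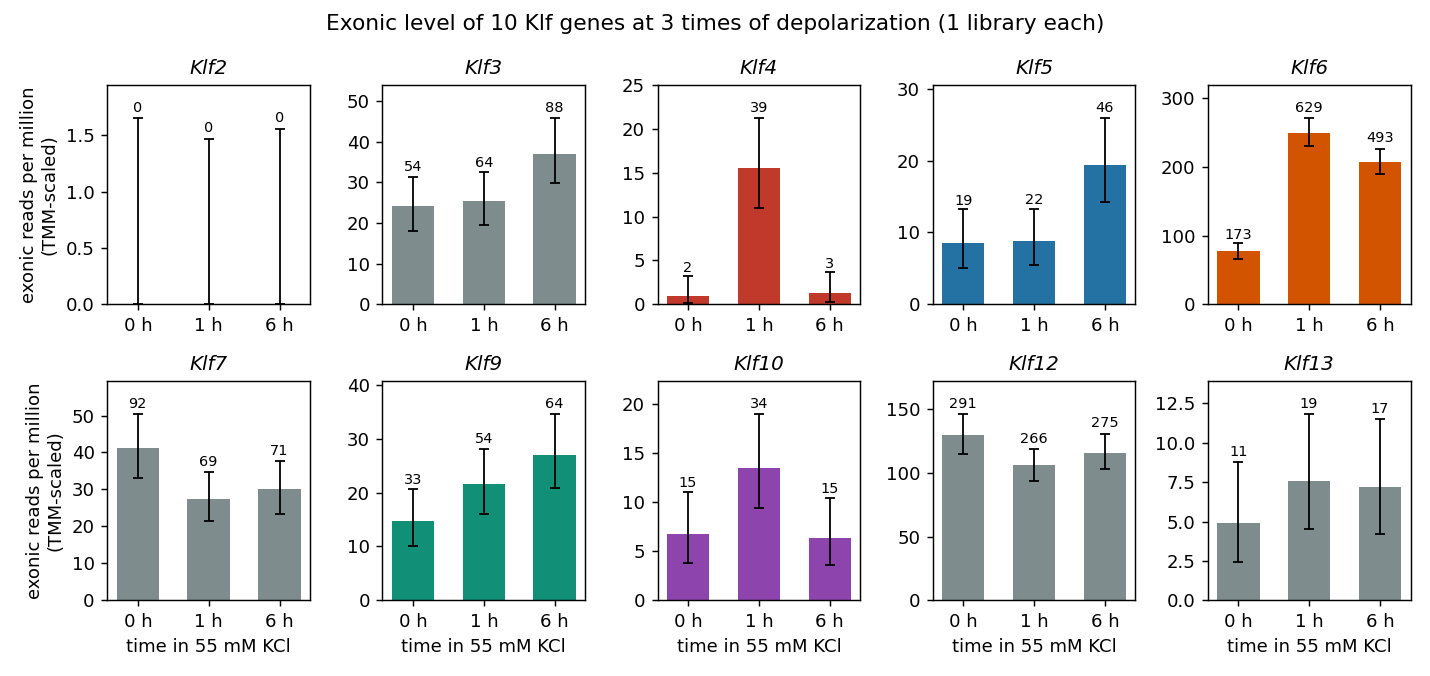
TMM-scaled sense exonic RPM (y axis, a scale of its own for each gene) of 10 Klf genes after 0, 1 and 6 h in 55 mM KCl (x axis), 1 library a time, with bars for the level, whiskers for the exact 95% Poisson interval and the raw read count above each bar. Klf4 and Klf10 stand highest at 1 h, Klf6 is high at 1 h and 6 h, Klf5 is highest at 6 h and Klf2 has 0 reads throughout.

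Klf6, a broadly expressed activator first known as a core promoter element binding protein, gained the most reads of the 10 genes at both KCl times. It lies on the plus strand of chromosome 13 at chr13:5860735-5869639 (mm9) and has 4 exons. It had 173, 629 and 493 sense exonic reads at 0, 1 and 6 h, or 77.2, 250.3 and 208 scaled RPM. Both KCl libraries lay far above the unstimulated one, and the counting intervals of the levels, 231 to 271 at 1 h and 190.1 to 227 at 6 h against 66.1 to 89.6 at 0 h, did not overlap it. The ratio was 3.24 (2.74 to 3.86) at 1 h and 2.69 (2.26 to 3.22) at 6 h, both relative to 0 h, and 0.831 (0.737 to 0.937) at 6 h relative to 1 h. Of the exonic reads of all 10 genes, Klf6 held 25.1%, 52.6% and 46.0% at 0, 1 and 6 h, and the summed level of the 10 genes was 308, 476 and 452 scaled RPM.

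Klf6 rose in its coding sequence and in its 3′ UTR alike. Exon 4, which holds the 3′ UTR, had 120, 438 and 355 reads at 0, 1 and 6 h, a ratio of 3.26 (2.65 to 4.02) at 1 h. Reads in coding sequence numbered 52, 176 and 131, a ratio of 3.02 (2.20 to 4.20) at 1 h. Its introns differed in size of change. Intron 1, the longest and most read, had 20, 33 and 33 reads at 0, 1 and 6 h. Its ratios to 0 h were 2.25 (1.25 to 4.13) at 1 h and 1.85 (1.03 to 3.40) at 6 h. Intron 2 had 4, 28 and 20 reads, and intron 3 had 0, 10 and 0 reads, so that intron 3 was read in the 1 h library alone.

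Klf4, a zinc finger factor best known as a pluripotency factor and a cell cycle inhibitor, was nearly absent outside the 1 h library. It lies on the minus strand of chromosome 4 at chr4:55540137-55545338 (mm9) and has 5 exons. It had 2, 39 and 3 exonic reads at 0, 1 and 6 h, or 0.892, 15.5 and 1.27 scaled RPM. The 1 h library stood alone, with reads in each of its 5 exons, led by exon 3 with 2, 22 and 1 reads. The ratio at 1 h relative to 0 h was 17.4 (4.50 to 149), and the level at 6 h was 12.3-fold lower than at 1 h (3.90 to 62.0). No ratio is given between 6 h and 0 h, where both libraries had 3 reads or fewer. Of the exonic bases of Klf4, 68.0% are listed as mappable with unique reads, and for Klf5 the share is 78.9%, so levels of these genes per kb are understated. With the authors' correction for mappability, the deposited coverage of Klf4 was 0.0394, 0.808 and 0.0619 reads deep per 10000000 mapped reads at 0, 1 and 6 h.

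The sequences upstream of Klf4 and Klf6 are shown because both genes rose at 1 h, one briefly and one for longer. Each is the 250 bases before the annotated RefSeq start, 5′ to 3′ on the gene's strand, on GRCm38.p6, at chr4:55532476-55532725 (minus strand) for Klf4 and chr13:5861239-5861488 (plus strand) for Klf6. Capitals mark GC boxes, GGGCGG on either strand, the kind of box that KLF and Sp proteins bind.
Klf4: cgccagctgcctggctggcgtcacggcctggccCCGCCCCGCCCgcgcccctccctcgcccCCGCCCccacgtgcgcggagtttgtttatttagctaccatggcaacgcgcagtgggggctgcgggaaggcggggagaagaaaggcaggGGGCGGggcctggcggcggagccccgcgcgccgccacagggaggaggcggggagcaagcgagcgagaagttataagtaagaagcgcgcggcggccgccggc
Klf6: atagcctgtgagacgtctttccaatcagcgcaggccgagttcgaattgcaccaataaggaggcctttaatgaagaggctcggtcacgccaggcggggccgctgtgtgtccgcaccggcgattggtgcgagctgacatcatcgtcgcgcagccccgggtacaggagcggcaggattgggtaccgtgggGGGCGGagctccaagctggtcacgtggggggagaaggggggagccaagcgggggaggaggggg
Klf4 has 4 GC boxes, with first bases at -217, -212, -189 and -101 counted back from the start, and the first 2 overlap. Klf6 has 1 GC box, at -63. Neither window holds a CACCC box. The core of the cyclic AMP response element, TGACG, which the activity-regulated factor CREB binds, is present in the Klf4 window at -232 and not in the Klf6 window.

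The RefSeq table held promoters of 8 of the 10 genes, Klf5 and Klf10 being the others. On either strand of the 250 bases, GGGCGG was found in 6 of 8, beside 32.7% of all 32851 promoters in the table. CACCC was found in 6 of 8, beside 52.0% of all. TGACG was found in 5 of 8, beside 17.8% of all, and the full element TGACGTCA, which contains it, in 0 of 8, beside 1.55% of all. The 5 were Klf2, Klf4, Klf9, Klf12 and Klf13, of which Klf4 alone rose on exonic reads, and Klf2 and Klf13 were not compared. GC content ran from 48.0% (Klf12) to 78.4% (Klf3) in these windows. That of all promoters was not computed, so the shares are not matched for it. The CArG box, the site of the serum response factor SRF, was found in 0 of 8, beside 1.47% of all. The MEF2 element was found in 1 of 8, Klf2, at -118, beside 2.92% of all. These are matches of letters, not measured binding.

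Klf5, an activator known for promoting proliferation in epithelium and smooth muscle, rose late. It lies on the plus strand at chr14:99697910-99712631 (mm9). It had 19, 22 and 46 exonic reads at 0, 1 and 6 h, or 8.48, 8.76 and 19.4 scaled RPM. The first 2 libraries were alike in level and the 6 h library stood above both. The ratio at 6 h was 2.29 (1.32 to 4.14) relative to 0 h and 2.22 (1.31 to 3.87) relative to 1 h, while that at 1 h relative to 0 h was 1.03 (0.533 to 2.02). When exonic and intronic reads were summed, the ratio at 6 h relative to 0 h was 1.62 and Klf5 was no longer counted as higher. Most of the difference lay in exon 2, with 15, 17 and 32 reads, which holds most of the coding sequence.

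Klf7, an activator with roles in neurite growth and sensory neuron development in the mouse, was not higher in KCl. It lies on the minus strand at chr1:64082237-64167963 (mm9). It had 92, 69 and 71 exonic reads at 0, 1 and 6 h, or 41.1, 27.5 and 30.0 scaled RPM. Its ratios relative to 0 h were 0.669 (0.482 to 0.924) at 1 h and 0.730 (0.528 to 1.01) at 6 h, both short of 2-fold. Its annotated 3′ UTR spans 50 bp, and the 500 bp beyond it, which enter no exonic count, had 29, 20 and 29 reads. Klf7 and Klf6 therefore moved differently in these libraries: per kb of exon, Klf7 stood at 30.5, 20.4 and 22.3 scaled RPM, and Klf6 at 18.3, 59.4 and 49.3.

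Klf2, known for its role in endothelial and T cells and as a target of MEF2 factors, lies at chr8:74842932-74845248 (mm9, plus strand) and had 0 exonic reads in each library. A count of 0 allows up to 3 reads, or 1.37, 1.22 and 1.21 RPM before TMM scaling at 0, 1 and 6 h, while the wider Poisson intervals drawn in the plot of levels reach 1.65, 1.47 and 1.56 scaled RPM. Endothelial markers were near absent as well: none of 8 reached 20 reads, 3 (Cdh5, Tie1 and Cldn5) were at 0 in each library, and their summed level was 3.12, 4.78 and 5.06 scaled RPM.

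Klf3 and Klf12, the repressors that recruit CtBP, showed no 2-fold difference. Klf3, at chr5:65194762-65221368 (mm9, plus strand), had 54, 64 and 88 exonic reads at 0, 1 and 6 h. Its level at 6 h lay above that at 0 h by a ratio of 1.54 (1.09 to 2.20), an interval that excludes 1 but stays under the fold required. Klf12, the longest of the genes at chr14:100269851-100549015 (mm9, minus strand), had 291, 266 and 275 exonic reads. Its ratios relative to 0 h were 0.815 (0.688 to 0.966) at 1 h and 0.894 (0.755 to 1.06) at 6 h. Klf12 gave 42.2% of the exonic reads of the 10 genes at 0 h, and 22.2% and 25.7% at 1 and 6 h as Klf6 rose.

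Of the Sin3a-binding repressors, Klf10 rose for a short time. Klf10 is also known as a TGFβ-inducible early gene, and lies on the minus strand at chr15:38224168-38230462 (mm9). It had 15, 34 and 15 exonic reads at 0, 1 and 6 h, or 6.69, 13.5 and 6.33 scaled RPM. The 1 h library was the high one and the 0 h and 6 h libraries were close to each other. The ratio at 1 h relative to 0 h was 2.02 (1.07 to 3.99), just past the threshold, and the level at 6 h was 2.14-fold lower than at 1 h (1.13 to 4.22). The excess at 1 h lay in exon 4, with 4, 20 and 10 reads at 0, 1 and 6 h, while exon 3 had 9, 11 and 4.

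Klf9, a thyroid hormone and glucocorticoid target in rodent brain, had exonic reads that lay just under the threshold at 6 h. It lies on the plus strand at chr19:23215716-23241401 (mm9). It had 33, 54 and 64 exonic reads at 0, 1 and 6 h, or 14.7, 21.5 and 27.0 scaled RPM. Its ratios relative to 0 h were 1.46 (0.929 to 2.32) at 1 h and 1.83 (1.19 to 2.88) at 6 h. Scaled to uniquely mapped reads, the ratio at 6 h was 2.03 and Klf9 was counted as higher.

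Klf13, a repressor also known from T cells, had 11, 19 and 17 exonic reads at 0, 1 and 6 h and was not compared on them. It lies on the minus strand at chr7:71036253-71083743 (mm9) and overlaps a gene on the opposite strand, E030018B13Rik, whose reads were counted apart. None of the 10 genes overlaps another gene on its own strand, and their exons together held 7, 1 and 3 antisense reads at 0, 1 and 6 h.

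Per kb of exon, the order of the family differed between the unstimulated and the KCl libraries. At 0 h Klf7 came first with 30.5 scaled RPM per kb, then Klf12 with 22.6, Klf6 with 18.3 and Klf3 with 10.4. At 0 h the interval of Klf7 (24.6 to 37.5) overlapped that of Klf12 (20.1 to 25.4), and that of Klf12 overlapped that of Klf6 (15.7 to 21.2). At 1 h Klf6 came first with 59.4, and at 6 h with 49.3, and its intervals of 54.8 to 64.2 and 45.1 to 53.9 overlapped that of no other Klf gene studied. Klf7 and Klf12 followed at both KCl times, with overlapping intervals. From the fifth place at 1 h, Klf9, Klf13, Klf4, Klf5 and Klf10 lay between 6.59 and 4.44 with overlapping intervals. At 0 h Klf4 had been ninth with 0.307. The places of Klf4 and Klf5 may be too low, because their levels per kb are understated where bases are not mappable.

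Intronic reads, which in total RNA come largely from unspliced transcripts, gave a second readout of the same genes. Their scaling was taken from intronic reads of all genes. At 1 h relative to 0 h, 2 of 7 Klf genes with enough intronic reads rose (Klf6 and Klf9) and none fell, against 7.48% of 8143 genes that rose and 6.19% that fell. At 6 h relative to 0 h, 1 of 6 rose (Klf6) and none fell, against 5.27% of 8236 genes that rose and 5.59% that fell. At 6 h relative to 1 h, 1 of 7 rose (Klf5) and 1 fell (Klf9). Beside this, 7.07% of 7734 genes rose and 5.79% fell. Klf9 had enough intronic reads at 1 h alone, the time at which they were high. Its rise at 1 h and its fall from 1 h to 6 h therefore both entered through that library.

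Klf6 had 24, 71 and 53 intronic reads at 0, 1 and 6 h. Its intronic ratio relative to 0 h was 4.03 (2.50 to 6.69) at 1 h and 2.48 (1.5 to 4.19) at 6 h, close to its exonic ratios. Klf4 had 1, 16 and 1 intronic reads, a ratio of 21.8 (3.38 to 913) at 1 h that rests on too few reads to be counted. Klf5 had 50, 24 and 62, and its ratio at 6 h relative to 1 h was 2.13 (1.31 to 3.57). Klf10 had 2, 3 and 2, too few for a ratio. Klf13, not compared on exonic reads, had 167, 129 and 123 intronic reads. Its intronic ratios relative to 0 h were 1.05 (0.829 to 1.33) at 1 h and 0.826 (0.649 to 1.05) at 6 h. With scaling from exonic reads instead, the ratio at 1 h was 0.689.

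Klf9 had 18, 34 and 16 intronic reads at 0, 1 and 6 h, so its single intron was read most at 1 h, while its exons were read most at 6 h. The intronic ratio at 1 h relative to 0 h was 2.57 (1.41 to 4.84). The level at 6 h was 2.58-fold lower than at 1 h (1.39 to 5.00). Both comparisons met the minimum of reads through the 1 h library alone. The rise at 1 h depends on the scaling: with factors from exonic reads, which lower the median intronic log2 ratio of all genes at 1 h to -0.67 from -0.06, the Klf9 ratio was 1.68, and scaled to uniquely mapped reads it was 1.99. Klf6 was counted as higher at 1 h under both, with 2.64 and 3.11, while Klf5 was counted as lower at 1 h with exonic factors, at 0.428 instead of 0.653.

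Exonic and intronic reads of a gene can be set against each other without scaling between libraries, as the ratio of exonic to intronic reads at the later time over that at the earlier time. At 6 h relative to 1 h the median of this ratio over 7123 genes was 0.786. For Klf9, which had enough intronic reads at 1 h alone, the ratio was 2.50 (1.20 to 5.42), an interval without that median. For Klf6 it was 1.23 (0.717 to 2.05) at 1 h and 1.29 (0.738 to 2.20) at 6 h relative to 0 h, intervals that held the medians over all genes of 1.49 and 1.14. For Klf12 it was 1.21 (0.986 to 1.48) at 1 h and 0.854 (0.702 to 1.04) at 6 h, both below those medians. Klf12 was not unusual in this, as it stood at percentiles 31.8 and 19.8 among all genes compared.

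**Figure D2:**
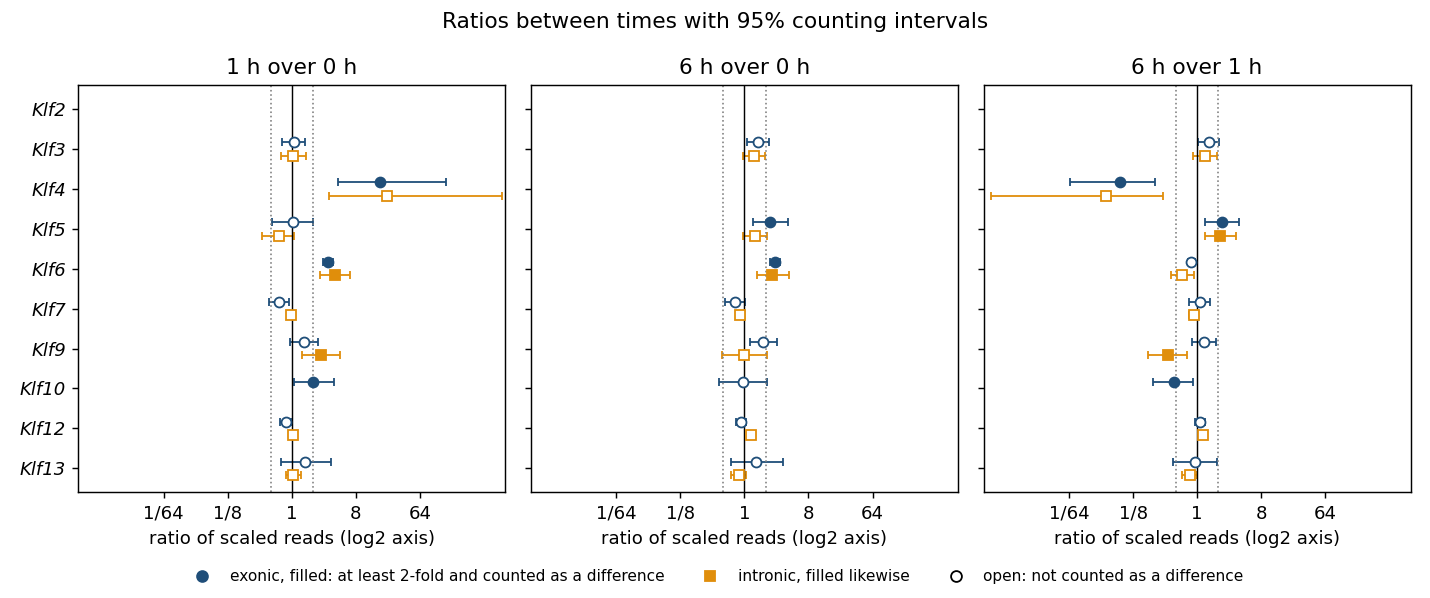
Ratio of scaled reads (x axis, log2) for each Klf gene (y axis) between the times named above each panel, for exonic reads (circles) and intronic reads (squares), with exact 95% counting intervals and dotted lines at 0.5 and 2. Filled symbols mark genes counted as higher or lower, such as Klf4, Klf6 and Klf10 for exonic reads at 1 h, and genes with 3 reads or fewer in both libraries have no symbol.

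**Figure D3:**
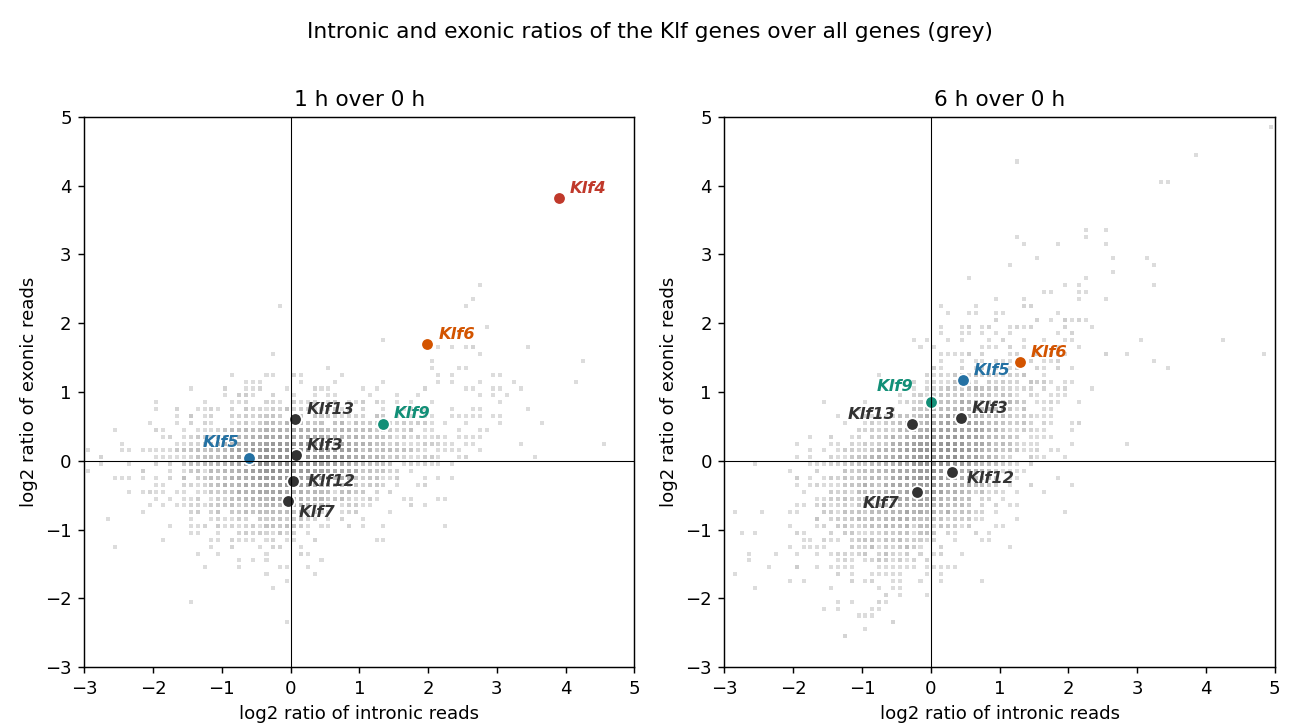
Log2 ratio of exonic reads (y axis) against log2 ratio of intronic reads (x axis) for the Klf genes with a ratio of both kinds (coloured and black points) and for all genes with at least 20 reads of both kinds (grey squares, darker where more genes fall), at 1 h and 6 h relative to 0 h. Klf6 lies to the upper right in both panels, Klf4 is plotted at 1 h from 16 intronic reads against 1, and Klf9 lies to the right at 1 h and above 0 on the exonic axis at 6 h.

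The introns of the long genes did not move as one at 1 h. In Klf7, intron 1 had 239, 122 and 148 reads at 0, 1 and 6 h, a ratio of 0.695 (0.554 to 0.868) at 1 h, whereas intron 2 had 206, 182 and 190, a ratio of 1.20 (0.980 to 1.48). In Klf12, intron 2 had 305, 182 and 350 reads, a ratio of 0.812 (0.672 to 0.979) at 1 h, whereas intron 4 had 157, 176 and 177, a ratio of 1.53 (1.22 to 1.90). Introns 1, 3, 5 and 6 of Klf12 had ratios of 0.988, 1.06, 1.05 and 0.817 at 1 h, with intervals that held 1. At 6 h relative to 0 h introns 2 and 4 were alike, at 1.29 and 1.26. None of these ratios reached 2-fold. Klf7 and Klf12 together held 79.6%, 74.2% and 79.0% of the intronic reads of the 10 genes at 0, 1 and 6 h.

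**Figure D4:**
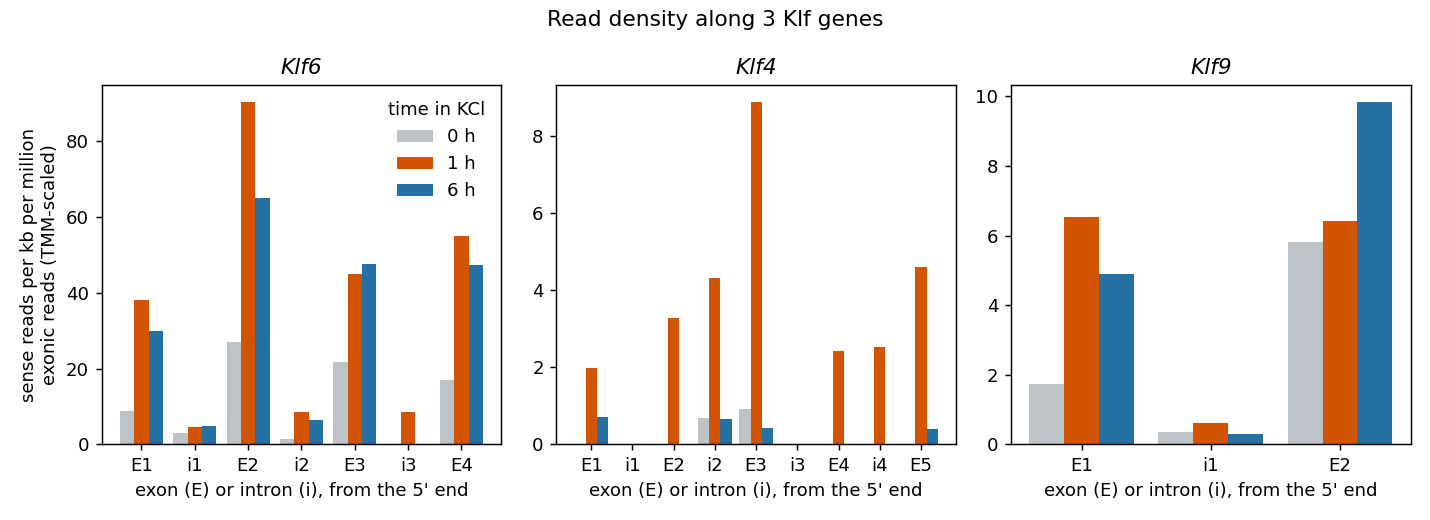
Sense reads per 1000000 exonic reads, per kb (y axis, a scale of its own for each gene) in each exon (E) and intron (i) of Klf6, Klf4 and Klf9 from the 5′ end (x axis) at 0, 1 and 6 h, all scaled with the exonic TMM factors. Klf6 is higher at 1 h and 6 h than at 0 h in each of its 4 exons, Klf4 is read mainly at 1 h, and exon 1 of Klf9 had 4, 17 and 12 reads at 0, 1 and 6 h.

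Among the other genes of the family, 16 further Klf and Sp genes were in the files and 9 had at least 20 reads. Klf11, a Sin3a-binding repressor close to Klf10, had 76, 140 and 39 exonic reads at 0, 1 and 6 h. Its level at 6 h was 2.06-fold lower than at 0 h (1.38 to 3.11) and 3.39-fold lower than at 1 h (2.36 to 4.96), and its ratio at 1 h relative to 0 h was 1.64 (1.23 to 2.20). Klf15, a glucocorticoid target, had 55, 30 and 60 reads, 2.06-fold lower at 1 h than at 0 h (1.29 to 3.32) and back at 6 h with a ratio of 2.12 (1.35 to 3.41) to 1 h. No other of the 9, the measured Sp genes included, was counted as higher or lower between any pair of times.

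The genes whose pattern over the 2 log2 ratios to 0 h was nearest to that of each responding Klf gene were named by rule, out of 8537 genes with at least 100 exonic reads in all. Nearest to Klf4 were Egr1 with 89, 1517 and 133 reads at 0, 1 and 6 h, Arc with 27, 595 and 40, and Dusp1 with 58, 573 and 80. Egr1 is an immediate early zinc finger factor, Arc an immediate early synaptic protein and Dusp1 a phosphatase of MAP kinases. The Klf4 pattern rests at 6 h on 3 reads, against 2 at 0 h, and its ratio at 1 h has an interval of 4.50 to 149. Its place among the genes is therefore loose. Within 0.5 log2 units of Klf4 lay 2 genes, Egr1 and Arc, while Dusp1 lay at 0.689. Nearest to Klf6 were Gla, a lysosomal galactosidase, Snf1lk (now Sik1), a salt-inducible kinase, and Srf, and 9 genes lay within 0.5 log2 units of Klf6. Within the same distance of Klf10 lay 95 genes. Nearest to Klf5 were Gm944 (now Garem1), Ccdc131 (now Zfc3h1) and Tyro3, with 400 genes within that distance, so the Klf5 pattern is a common one here.

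Of the 15 partners and modifiers listed, which include the corepressors CtBP and Sin3a and the ubiquitin ligase Wwp1, 13 had enough reads and none was counted as higher or lower at 1 h or 6 h relative to 0 h, where 1.58% and 1.43% of all genes were higher and lower at 1 h and 4.92% and 5.42% at 6 h. With so few genes a count of 0 is near those shares. Their median log2 ratios were -0.01 and -0.09. Crebbp came nearest to the threshold at 1 h, with 644, 391 and 550 reads at 0, 1 and 6 h. Its ratios to 0 h were 0.541 (0.476 to 0.615) at 1 h and 0.808 (0.719 to 0.906) at 6 h. Of 33 regulators listed as acting upstream of Klf genes, 29 were compared at 1 h, with 1 higher and 1 lower, and 30 at 6 h, with 4 higher and 1 lower, beside the same shares of all genes. The medians were -0.08 and 0.01. Both lists were chosen with earlier results of these data known.

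Srf, the serum response factor, had 56, 194 and 151 exonic reads at 0, 1 and 6 h, with ratios to 0 h of 3.09 (2.28 to 4.24) at 1 h and 2.55 (1.86 to 3.53) at 6 h. Its coactivator Mkl2 had 83, 39 and 98 reads and was 2.39-fold lower at 1 h than at 0 h (1.61 to 3.59). At 6 h the other higher genes were Mef2c, an activity-regulated MADS box factor, with 291, 335 and 751 reads at 0, 1 and 6 h and a ratio to 0 h of 2.44 (2.13 to 2.80), Hdac9, a class IIa deacetylase that binds MEF2 factors, with 256, 278 and 884 reads and 3.27 (2.84 to 3.77), and Thrb, a thyroid hormone receptor, with 3.57 (1.68 to 8.47) on 9, 17 and 34 reads, of which the 6 h library alone reached 20. The mineralocorticoid receptor Nr3c2 had 23, 29 and 10 reads and was 2.43-fold lower at 6 h than at 0 h (1.11 to 5.72).

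Of 24 genes listed as known KLF targets, 10 were compared at 1 h and none was higher or lower. Beside this, 1.58% of all genes were higher and 1.43% lower at 1 h. At 6 h 11 of the listed genes were compared, with 3 higher and none lower, beside 4.92% of all genes higher and 5.42% lower. The list was chosen with earlier results of these data known, so its count is no test against those shares. The medians were 0.07 and 0.26. L1cam came nearest to the threshold at 1 h, with 1260, 744 and 742 reads at 0, 1 and 6 h. Its ratios to 0 h were 0.527 (0.480 to 0.577) at 1 h and 0.557 (0.508 to 0.610) at 6 h. Cdkn1a, the cell cycle inhibitor p21, which Klf4 and Klf6 are known to induce, had 183, 256 and 513 reads at 0, 1 and 6 h and a ratio to 0 h of 2.65 (2.24 to 3.16) at 6 h. Ccnd1, cyclin D1, which Klf5 is known to induce and Klf4 to repress, had 126, 132 and 372 reads and a ratio of 2.79 (2.28 to 3.44). Tagln, a smooth muscle actin-binding protein, had 4, 0 and 29 reads and a ratio of 6.86 (2.41 to 26.8), and it reached 20 reads at 6 h alone. Of 7 mural and meningeal markers 1 reached 20 reads, with summed levels of 12.5, 10.3 and 8.02 scaled RPM at 0, 1 and 6 h, and of 6 markers of dividing cells 4 did, with 120.0, 123 and 116.

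How the libraries were scaled moved all genes together and not the calls of Klf4, Klf6 and Klf10. Scaled to uniquely mapped reads, the median log2 exonic ratio of all genes was 0.25 at 1 h and 0.15 at 6 h relative to 0 h. Under that scaling 85.1% of the genes counted at 1 h were higher, where TMM gave 52.5%, and 64.5% at 6 h, where TMM gave 47.6%; between 6 h and 1 h it was 36.0%, where TMM gave 47.4%. Klf4 and Klf10 at 1 h, and Klf5 at 6 h, rest on fewer than 50 reads in each library.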

How the data were processed

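The deposited tables, 1 for each of the 3 libraries, hold whole-number read counts per gene, not normalised by the authors, with sense and antisense reads apart. Per the counting logs deposited with them, the counted reads were 35 bp long, with a unique match of up to 3 mismatches in the C57BL-6J genome or at RefSeq exon junctions, and repeated reads at a position were kept. The authors' coverage signal is scaled to 10000000 mapped reads and corrected for mappability. The build is mm9, per the submitters' processing notes, and the sources used here name no aligner. Because reads with several matches were dropped, near-identical copies are undercounted.

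Exonic and intronic counts were each scaled with TMM factors of edgeR 4.0.16 (R 4.3.3). Ratios carry Clopper-Pearson 95% intervals (scipy 1.17.1), and log2 ratios used a pseudocount of 0.5 reads. The odds of exonic to intronic reads used exact conditional intervals and genes with at least 20 reads of both kinds. Alternatives were other scalings, DESeq2 1.42.0 size factors among them, other minimums and another fold. Members, lists and rules were chosen with earlier results of these data known. All 10 members were named, other Klf and Sp genes and list members where called, and for each member called against 0 h the 3 nearest genes by pattern, which for Klf10 are not reported here. List genes were matched by symbol, or by gene identifier for 4 entries. Promoters came from RefSeq on GRCm38.p6, which is not the build of the counts.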

Additional observations from a re-analysis of the deposited data

Results flagged for a closer look

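Reads beyond the annotated 3′ end of Klf9 were higher in the KCl libraries than in the unstimulated one. The 500 bp downstream held 7, 21 and 26 sense reads at 0, 1 and 6 h. The ratio relative to 0 h was 2.68 (1.10 to 7.45) at 1 h and 3.51 (1.48 to 9.58) at 6 h, beside exonic ratios of 1.46 and 1.83. These reads enter no exonic count. The region was picked by scanning the flanks and antisense reads of the 10 genes. The share of all genes with such ratios downstream was not computed, so none stands beside these ratios or those of Klf12 below. Such a rise could be flagged only with at least 20 reads in 1 of the 2 libraries. Besides Klf9, only Klf7 and Klf12 reached that count downstream, and no gene reached it upstream or in antisense reads. Neither Klf7 nor Klf12 had such a rise relative to 0 h, and Klf12 had enough reads for this at 1 h alone. For the other genes and regions a rise could not be judged. The 500 bp downstream of Klf12 held 15, 29 and 13 reads, a ratio of 0.475 (0.227 to 0.944) at 6 h relative to 1 h and of 1.72 (0.895 to 3.46) at 1 h relative to 0 h.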

How the results depend on the processing

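No paired analysis was possible because each time has 1 library, and leaving out a library was not possible for the same reason. Of the 10 Klf genes, 3 were counted as higher or lower at 1 h relative to 0 h, 2 at 6 h relative to 0 h and 3 at 6 h relative to 1 h. A minimum of 50 reads left 1 (Klf6), 1 (Klf6) and 0, because the other genes have fewer reads. Summing exonic and intronic reads left 1 at 6 h relative to 0 h (Klf6), and a fold of 1.5 gave 4 (Klf3, Klf5, Klf6 and Klf9). Klf9 was the gene added at 6 h relative to 0 h by uniquely mapped reads and by the authors' coverage, which gave 3. Total exonic reads, DESeq2 size factors and no minimum named the same Klf genes in each comparison. Over the exonic alternatives Klf6 ranged from 3.24 to 3.83 at 1 h and from 2.52 to 2.99 at 6 h relative to 0 h, Klf4 from 17.4 to 20.5 and Klf10 from 2.02 to 2.39 at 1 h. Of 176 recomputed exonic and intronic ratios of single genes, 161 stayed within the counting interval of the reported ratio, and no called ratio changed direction. Intervals are wide where reads are few, so this count is no measure of robustness. A ratio within its interval could still lose its call, as Klf5 did at 6 h relative to 0 h (2.29, and 1.62 with intronic reads added). With intronic reads scaled to uniquely mapped reads, 1 Klf gene (Klf6) was counted at 1 h relative to 0 h.

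Over all genes, 303 were counted at 1 h relative to 0 h, against 133 with a minimum of 50 reads, 474 with none, 556 with intronic reads added and 915 at a fold of 1.5. At 6 h relative to 0 h the 1044 became 587 with a minimum of 50 reads and 2506 at a fold of 1.5, and at 6 h relative to 1 h the 892 became 523 and 2104. Intronic calls at 1 h relative to 0 h numbered 1113, of which 54.7% were higher, against 2425 with exonic factors, of which 8.70% were higher. Exonic reads under 20, as for Klf2 and Klf13, limit what can be seen at this depth.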
